A study of Mus musculus with 3 samples.

Results

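The highly transcribed lncRNA and inducible gene loci were 5 windows of the mm9 mouse genome that hold 7 genes: Malat1 and Neat1 on chromosome 19 (5.78 to 5.86 Mb), Mir21 on chromosome 11 at the 3' end of Vmp1 (86.38 to 86.41 Mb), Ccl2 and Ccl7 on chromosome 11 (81.84 to 81.87 Mb), Ddit4 on chromosome 10 (59.405 to 59.42 Mb) and Ier2 on chromosome 8 (87.175 to 87.195 Mb). Every peak of the deposited Cbx2 peak table that overlapped a window was a member, which gave 9 peaks of 2217. The windows were picked with the signal of these peaks in both libraries known, so their levels and their ratios between libraries are given as descriptions, with no test. The table carries no gene names, and genes were placed by the windows alone. It holds no transcript levels either, so whether these genes were highly transcribed in these cells was not measured here.

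The study profiled Cbx2 by chromatin immunoprecipitation and sequencing (ChIP-seq) in C3H10T1/2 cells, a mouse embryonic mesenchymal progenitor line. For every library the labels give fixation in 1% formaldehyde for 10 min. The 2 ChIP libraries, 1 per group, came from cells carrying a stable transgene for FLAG-HA-tagged H3.3: the wild-type histone in one (WT), and in the other the mutant K36M, whose lysine 36 is a methionine. Only its title identifies the K36M library, because the genotype given for every library is wild-type H3.3. The labels name no promoter for the transgene and do not say whether each line is a clone, and no marker of the cell type can be read from a Cbx2 peak table. Signal is given in reads per 1000000 library reads (RPM), from libraries of 29278813 reads (WT) and 36243012 reads (K36M). With 1 library per group there was no spread between replicates to set a difference against, so 95% intervals cover counting error only.

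Cbx2 belongs to Polycomb repressive complex 1 (PRC1). Its chromodomain binds histone H3 that Polycomb repressive complex 2 has trimethylated, and the complex is best known for keeping developmental genes such as the Hox clusters silent. The genes of these windows are of another kind. Malat1 and Neat1 are neighbouring genes for long noncoding RNAs kept in the nucleus. Malat1 RNA collects in nuclear speckles, and Neat1 RNA is the scaffold of paraspeckles. Mir21 encodes miR-21, a microRNA abundant in many cell types. Ccl2 and Ccl7 encode chemokines that attract monocytes, Ddit4 encodes a stress-induced inhibitor of mTORC1 signalling, and Ier2 is an immediate-early gene induced by serum and growth factors.

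All 7 genes matched a RefSeq entry (GRCm38.p6), Mir21 under the symbol Mir21a. In that annotation Malat1 and Neat1 lie next to each other in that order, with 0 annotated genes between them, Ccl2 and Ccl7 are followed by the chemokine genes Ccl11 and Ccl12, Ddit4 lies between Dnajb12 and Anapc16, Ier2 lies between Cacna1a and Nacc1, and Mir21a overlaps Vmp1. The mature products of Mir21a are shown because they name the RNA that the chromosome 11 window stands for. The miR-21c sequence belongs to the separate entry Mir21c and is shown beside them for comparison. Bases 2 to 8, the seed that pairs with target RNAs, are in capitals. The 5p seed was shared by 2 of 1679 mature mouse miRNAs in the table, miR-21a-5p and miR-21c, and the 3p seed was found in miR-21a-3p alone.
mmu-miR-21a-5p: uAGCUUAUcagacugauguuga
mmu-miR-21a-3p: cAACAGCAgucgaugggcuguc
mmu-miR-21c: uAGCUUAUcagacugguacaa

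Promoter sequences were at hand for Ddit4 and Malat1. They are shown because Polycomb proteins are often found at promoters rich in CG dinucleotides, and these promoters differ in that respect. Each runs from 250 bases before to 50 after the gene's start, 5′ to 3′ on the minus strand, with every CG in capitals. Positions are on GRCm38.p6 and cannot be set against the mm9 peak positions, so whether a member peak covers either promoter was not analysed here.
Ddit4, chr10:59951721-59952020 (GRCm38.p6, minus strand): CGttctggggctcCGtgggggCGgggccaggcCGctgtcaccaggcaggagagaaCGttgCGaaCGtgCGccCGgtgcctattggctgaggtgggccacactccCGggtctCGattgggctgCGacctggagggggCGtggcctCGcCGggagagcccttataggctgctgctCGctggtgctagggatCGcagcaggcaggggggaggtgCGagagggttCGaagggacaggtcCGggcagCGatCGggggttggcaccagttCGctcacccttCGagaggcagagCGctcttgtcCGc
Malat1, chr19:5802623-5802922 (GRCm38.p6, minus strand): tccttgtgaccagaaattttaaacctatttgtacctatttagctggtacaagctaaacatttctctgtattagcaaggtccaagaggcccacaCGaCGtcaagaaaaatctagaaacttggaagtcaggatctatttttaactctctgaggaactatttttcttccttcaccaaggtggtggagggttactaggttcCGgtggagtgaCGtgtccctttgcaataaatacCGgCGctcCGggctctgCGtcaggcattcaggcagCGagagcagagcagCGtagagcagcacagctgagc

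The Ddit4 promoter held 26 CG dinucleotides and had a GC content of 69.0%. Among 32851 promoter sequences of this length, 16.9% held at least as many, and the median was 7. The Malat1 promoter held 10 and had a GC content of 47.0%, and 43.5% of promoters held at least as many. The motif TGACG, the half-site of the cAMP response element, was searched on both strands. It occurred 3 times in the Malat1 promoter and 0 times in that of Ddit4, and 20.8% of all promoters held it. The GC box GGGCGG, also searched on both strands, occurred 1 time in Ddit4 and 0 times in Malat1, against 35.7% of all promoters. The full cAMP response element TGACGTCA and the motif TATAAA occurred 0 times in either promoter. Of all promoters, 1.79% held the first and 13.6% the second.

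Cbx2 signal was higher in the K36M library at all 9 member peaks, in a table where signal was higher at 4.6% of all peaks. The ratio of K36M to WT ran from 1.08 to 2.24 over the members, with a median of 1.63, against a median of 0.341 over the table. The interval of the ratio lay above 1 at 8 members, against 2.75% of all peaks. By the log2 ratio with a pseudocount of 0.1 RPM, 3 members were at least 2-fold higher, against 0.271% of all peaks, and none was at least 2-fold lower, against 75.3%. With all members summed, the signal was 311.8 RPM in WT against 421.1 RPM in K36M, which gives a ratio of 1.35 (95% exact interval 1.32 to 1.39). The same ratio over the other 2208 peaks was 0.395 (0.393 to 0.397). The windows were picked on this contrast, so nothing is read from these shares. No peak of the table fell below 1.62 RPM per kb in WT, while K36M values ran down to 0.138 RPM per kb. Whether the choice of peaks favoured sites with WT signal, and left out sites with signal in K36M alone, was not tested. The shares over all peaks hold for the peaks of this table only. How far the members stand from the rest in direction depends on scaling: with the libraries brought to the same median over peaks, which raises every K36M value, 48.7% of all peaks were higher in K36M.

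**Figure D1:**
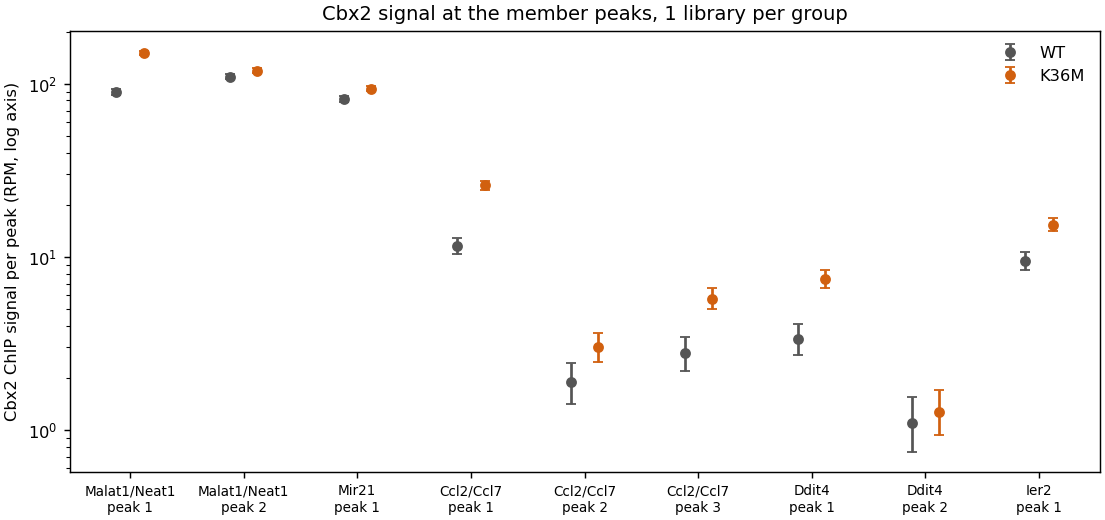
Cbx2 ChIP signal at the 9 member peaks, in RPM on a log axis, with WT in grey and K36M in orange; points are single libraries and bars are 95% exact Poisson intervals on reads. K36M lies above WT at each peak, and the intervals of the libraries overlap at Ddit4 peak 2, where they run from 0.748 to 1.54 RPM and from 0.929 to 1.69 RPM.

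The window of the 2 long noncoding RNA genes held the peak with the most signal of the set in each library. The lower-coordinate peak of the Malat1/Neat1 window, chr19:5793800-5803799 on mm9, was 10000 bp long. WT reads in it numbered 2629 and K36M reads 5435, or 89.8 RPM (86.4 to 93.3) and 150.0 RPM (146.0 to 154.0). The K36M value was clear of the WT interval, at a ratio of 1.67 (1.59 to 1.75). This peak ranked 9 of 2217 by RPM in WT and 1 in K36M.

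The higher-coordinate peak of the window, chr19:5836800-5850399, was 13600 bp long and began 33 kb after the end of the other. It held 109.9 RPM (3217 reads) in the WT library against 118.9 RPM (4309 reads) in K36M. Its ratio of 1.08 (1.03 to 1.13) was the lowest of the 9 members. The ratio of the first peak was 1.54 times that of the second (95% exact interval 1.45 to 1.65). This interval covers counting error only and is no test, since the window was picked on this contrast. In WT the second peak held more signal than the first, and in K36M this order was turned. Malat1 precedes Neat1 along chromosome 19 in RefSeq, but positions of the genes on mm9 were not used here, so neither peak is assigned to one of them. Both together held 1.22% of all reads in peaks in WT (95% Wilson interval 1.19 to 1.25) and 3.99% in K36M (3.91 to 4.06). These shares also reflect the lower total in K36M, where the signal of all peaks summed was 0.413 times that of WT. The ratio of the window's own summed signal was 1.35 (1.30 to 1.39).

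The Mir21 window held a single peak, chr11:86389800-86401199, 11400 bp long. Its signal was 82.0 RPM (2402 reads, 78.8 to 85.4) in WT, below the 93.6 RPM (3391 reads, 90.4 to 96.8) of K36M, with a ratio of 1.14 (1.08 to 1.20). It ranked 11 by RPM in WT and 3 in K36M, so that the 3 peaks with the most K36M signal in the table were all members. The window ends inside a stretch with further peaks. The nearest one outside it began 7 kb beyond its end, was 400 bp long and had 30 WT reads against 35 from K36M. Its ratio of 0.942 (0.562 to 1.59) was within counting error of 1.

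The chemokine window held 3 peaks. The largest, chr11:81849000-81852199, was 3200 bp long, with 11.5 RPM (338 reads) in WT against 25.9 RPM (938 reads) in K36M. Its ratio of 2.24 (1.98 to 2.55) was the highest among the members and ranked 4 in the table. The next peak, chr11:81859000-81859799, lay 6.8 kb further on and had 1.88 RPM (55 reads) and 3.01 RPM (109 reads), a ratio of 1.60 (1.15 to 2.26). The last, chr11:81861200-81861999, followed after 1.4 kb and had 2.77 RPM (81 reads) and 5.74 RPM (208 reads), a ratio of 2.07 (1.60 to 2.72). The 3 ratios differed by no more than counting error, since each interval of the ratio between a pair of them held 1. The summed signal of the window was 16.2 RPM for WT and 34.6 RPM for K36M, which puts the ratio at 2.14 (1.92 to 2.38).

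The Ddit4 window held 2 peaks that lay 2000 bp apart. The first, chr10:59411400-59412399, was 1000 bp long and had 3.35 RPM (98 reads) in WT against 7.48 RPM (271 reads) in K36M, for a ratio of 2.23 (1.77 to 2.84). The second, chr10:59414400-59414799, was 400 bp long and had 1.09 RPM (32 reads) and 1.27 RPM (46 reads), a ratio of 1.16 (0.724 to 1.88). It was the only member whose ratio was within counting error of 1. The ratio of the first peak was 1.92 times that of the second (1.12 to 3.28). Summed, the window had 130 WT reads against 317 K36M reads, for a ratio of 1.97 (1.60 to 2.44).

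The Ier2 window held 1 peak, chr8:87183400-87186999, 3600 bp long. It had 9.43 RPM (276 reads, 8.35 to 10.6) in WT against 15.3 RPM (556 reads, 14.1 to 16.7) in K36M, for a ratio of 1.63 (1.41 to 1.89). By RPM it ranked 497 in WT and 58 in K36M.

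**Figure D2:**
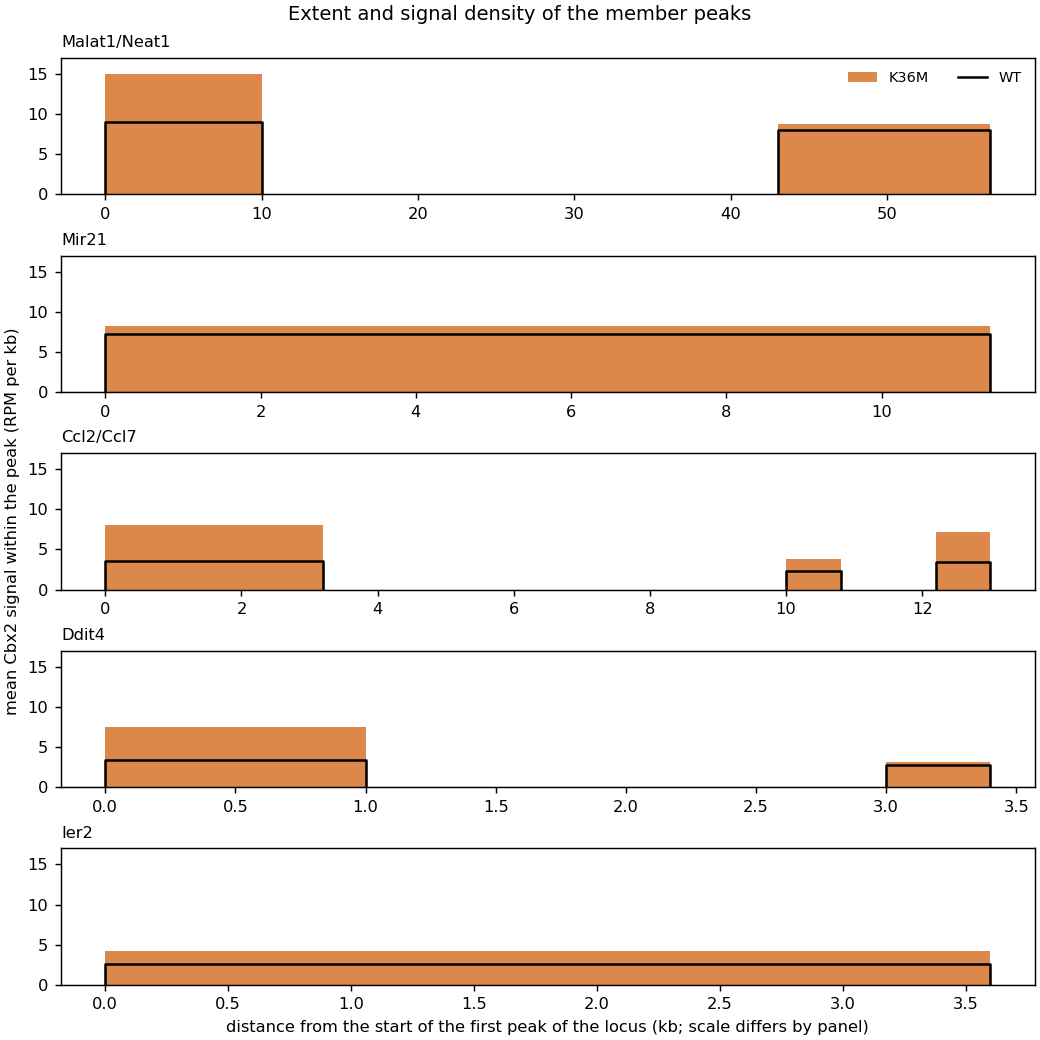
Extent and mean signal of the member peaks in each window, as RPM per kb of peak against the distance in kb from the start of the first peak; the orange block is K36M and the black outline is WT. The outline lies inside the block at all 9 peaks, and the gap between block and outline is widest at the first Malat1/Neat1 peak (8.98 against 15.0 RPM per kb).

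The loci fell in the order Ccl2/Ccl7 (ratio 2.14), Ddit4 (1.97), Ier2 (1.63), Malat1/Neat1 (1.35) and Mir21 (1.14). Neighbours in this order did not always differ beyond counting error. The ratio of Ccl2/Ccl7 to Ddit4 was 1.09 (0.855 to 1.37) and that of Ddit4 to Ier2 was 1.21 (0.936 to 1.57), so both intervals held 1. Ier2 against Malat1/Neat1 gave 1.21 (1.04 to 1.41), and Malat1/Neat1 against Mir21 gave 1.18 (1.11 to 1.26). Of the 10 pairs of loci, 8 had an interval that left out 1, each taken at 95% with no adjustment over pairs. These intervals cover counting error only and are no test of the order, since the windows were picked on this contrast.

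Signal per length set apart the members in another way. In WT, the 3 members of the lncRNA and Mir21 windows held 7.20 to 8.98 RPM per kb of peak, while the 6 at Ccl2/Ccl7, Ddit4 and Ier2 held 2.35 to 3.61, closer to the table's median of 2.35. In K36M the first group held 8.21 to 15.0 RPM per kb and the second 3.17 to 8.09, against a median of 0.828 over the table. The K36M ranges thus nearly met, which the WT ranges did not. All 9 members were among the 111 peaks in the top 5% by RPM per kb in K36M (at least 3.13), but only 3 were in the top 5% in WT (at least 4.20). A place in the K36M top 5% was not particular to the members. Of 34 peaks in windows of histone genes, described below, 33 were in the top 5% in K36M and 28 in WT. The largest changes in rank by RPM were those of weak peaks: the third Ccl2/Ccl7 peak ranked 1303 in WT and 243 in K36M, and the first Ddit4 peak ranked 1183 and 169. Rank leaves strong peaks little room to rise, since the 3 lncRNA and Mir21 peaks ranked 5, 9 and 11 in WT. Nothing is therefore read from the size of these changes. The weakest member, the second Ddit4 peak, ranked 1841 and 1142.

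Peak length, which does not enter the ratio between libraries, divided the members in the same way. The 3 lncRNA and Mir21 peaks were 10000 to 13600 bp long, and the other 6 were 400 to 3600 bp, around the median of 1600 bp over the table. Among the 288 peaks of at least 5200 bp, 263 were at least 2-fold lower in K36M, against 75.3% of all peaks. Of the 288, 9 (3.1%) were higher, against 4.6% of all peaks, and 3 of these 9 were members. The first Malat1/Neat1 peak had the highest ratio of these 288. The windows were picked on this contrast, so nothing is read from that rank or from the count of members. The other 285 had a median ratio of 0.294. The second Ddit4 peak was one of 428 peaks of 400 bp, of which 16 (3.7%) were higher in K36M.

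**Figure D3:**
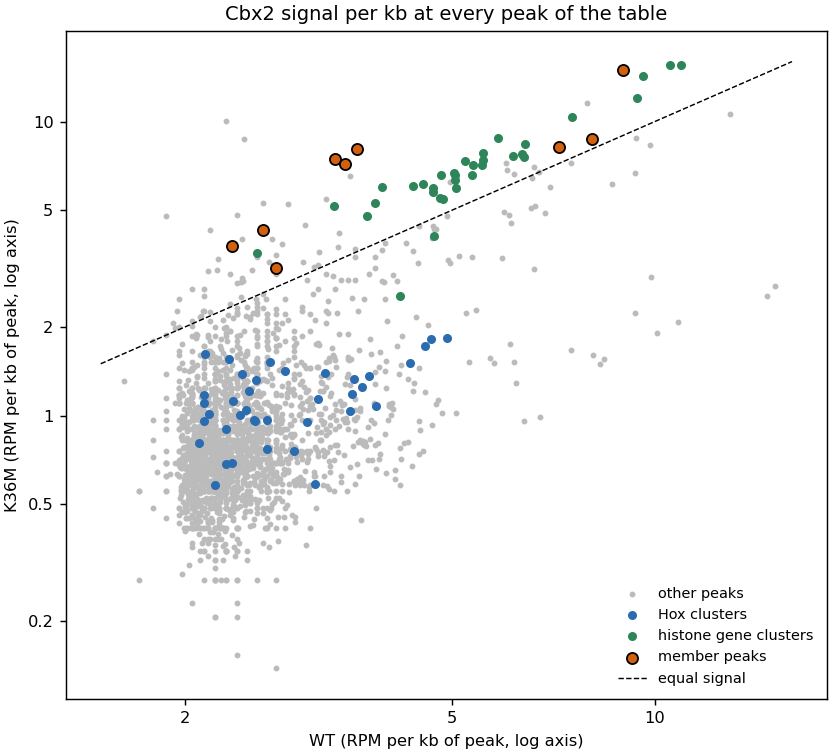
Cbx2 signal per kb of peak in WT and K36M at all 2217 peaks, both axes on a log scale, with the dashed line at equal signal. The 9 member peaks (orange) and 32 of 34 peaks of the histone gene windows (green) lie above the line, and all 38 peaks of the Hox windows (blue) lie below it.

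Most peaks around the windows were lower in K36M, as were 95.4% of all peaks of the table. The nearest peak on each side of each window, 10 in all, lay between 7 and 2791 kb from its edge and had ratios of 0.242 to 0.942. Within 1 Mb of the windows of Ccl2/Ccl7 and Ddit4 there was no further peak. Near Malat1/Neat1 there was 1, with 36 WT and 13 K36M reads and a ratio of 0.292 (0.142 to 0.563). Near Mir21 there were 12, all lower in K36M, with a median ratio of 0.783, above the table's median of 0.341. Near Ier2 there were 9, of which 2 were higher, with a median ratio of 0.559. Over all windows, 2 of 22 such peaks were higher in K36M, against 4.6% of all peaks, and 6 were at least 2-fold lower, against 75.3%. The median ratio of these 22 was 0.746, also above that of the table.

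Hox clusters, the classical Polycomb targets, and the clusters of replication-dependent histone genes served as scales. Their windows were set from general knowledge of the mm9 map and not from an annotation. The 38 Hox peaks summed to 825.2 RPM in WT against 318.2 RPM in K36M, for a ratio of 0.386 (0.377 to 0.394), and none was higher in K36M. The 34 histone peaks summed to 671.1 and 889.9 RPM, a ratio of 1.33 (1.30 to 1.35), and 32 were higher. The ratio at Malat1/Neat1 was 1.02 times that of the histone peaks (0.978 to 1.05), a difference within counting error. It was 0.860 times (0.814 to 0.909) at Mir21, and 1.61 (1.45 to 1.80), 1.49 (1.21 to 1.84) and 1.23 (1.06 to 1.42) times at Ccl2/Ccl7, Ddit4 and Ier2. These intervals cover counting error only. They are no test of likeness or difference, since both sets of windows were chosen with results of these data known. In signal per length, the histone peaks had medians of 5.05 RPM per kb in WT and 6.59 in K36M, and the Hox peaks 2.60 and 1.11.

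**Figure D4:**
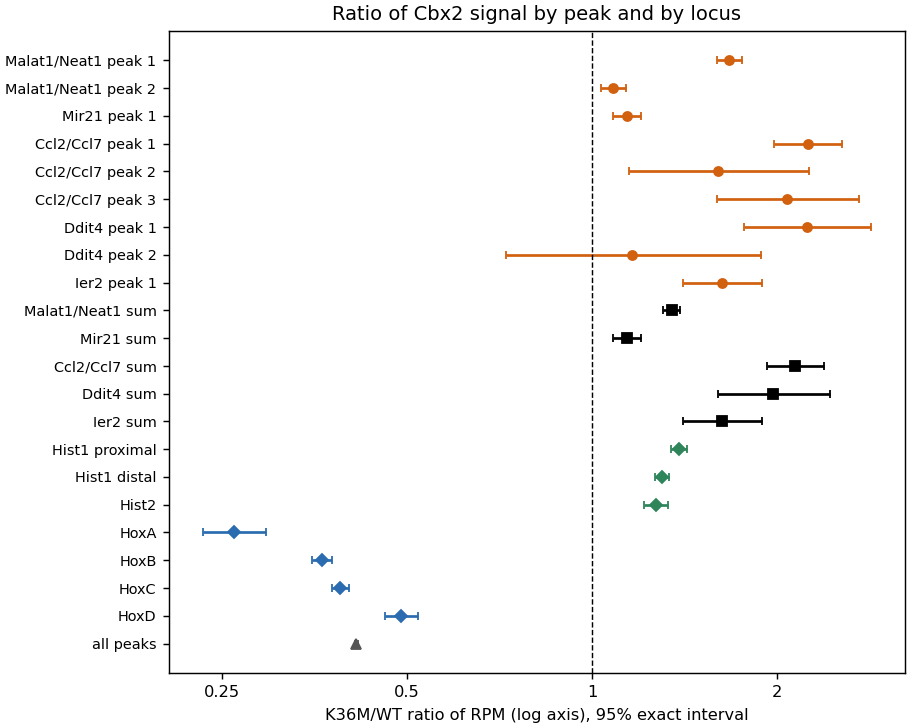
Ratio of K36M to WT signal (log axis, dashed line at 1) with 95% exact intervals, for each member peak (orange circles), each window's sum (black squares), histone windows (green), Hox windows (blue) and all peaks (grey). Member loci lie between 1.14 and 2.14 and the 4 Hox clusters between 0.262 and 0.489.

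The peaks elsewhere with the pattern most like that of the members were the 5 nearest to the median member in log2 RPM per kb of both libraries, a likeness over 2 libraries only. The nearest was chr11:83084800-83085799, with 3.52 (WT) and 6.51 (K36M) RPM per kb and a ratio of 1.85 (1.46 to 2.36). Of the others, 3 lay in the histone windows of chromosome 13, with ratios of 1.35 to 1.52. The last was a 400 bp peak at chr17:80606400-80606799, with 38 and 79 reads and a ratio of 1.68 (1.13 to 2.54).

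Together the 9 members covered 44.8 kb and held 1.91% of all reads in peaks in WT (95% Wilson interval 1.87 to 1.95) and 6.24% in K36M (6.15 to 6.34). Of all library reads, peak or not, they held 0.0312% (0.0305 to 0.0318) in WT and 0.0421% (0.0415 to 0.0428) in K36M. Beside this, the other peaks held 1.60% of WT reads and 0.632% of K36M reads. With the WT column read as the ChIP library, the table has no column for the input and its reads were not analysed here, so whether the signal at these loci exceeds that of unprecipitated chromatin was not tested.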

How the data were processed

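Cbx2 ChIP-seq signal was taken from a deposited table of 2217 peaks with 1 value per library, WT and K36M. The submitters' processing notes name Bowtie 1.0.0 and mm9; for the peak caller and the role of the input, the answer is not given in the sources used here. The headers say RPKM, but the values deposited by the authors behave as RPM: 100% were whole multiples of 1 step within 1e-06 of a read, whatever the peak length. That step was taken as 1 read to recover reads. The WT column could by its header also be the WT input; it was read as the ChIP, since the table is named for Cbx2, and every ratio rests on this.

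Members and comparison windows were chosen with earlier results of these data known. Every member was accounted for; the rule named in full the strongest K36M peak of each window and those at least 2-fold changed, the nearest peaks outside, and the 5 nearest in signal per kb. Ratios carry Clopper-Pearson intervals, ratios of ratios exact conditional intervals, and shares Wilson intervals (SciPy 1.17.1). With no molecular identifiers named, reads are not independent molecules. Log2 ratios used a pseudocount of 0.1 RPM, which understates changes of weak peaks. Calculations were tested on simulated reads. Alternatives were other pseudocounts, scalings, member rules, a filter, division by length and other fold limits.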

Additional observations from a re-analysis of the deposited data

How the results depend on the processing

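No paired analysis was possible because there was 1 library in each group, and none could be left out. The pseudocounts, the scalings (which raise K36M), division by length, the filter and the member rules leave the direction of a member peak's ratio fixed by construction, so they do not test it. Setting the median, the upper quartile or the sum of both libraries equal multiplies K36M by 2.89, 2.85 or 2.42. In that order the log2 ratios became 2.62, 2.60 and 2.37 at Ccl2/Ccl7, 2.48, 2.46 and 2.23 at Ddit4, 2.22, 2.20 and 1.97 at Ier2 and for the median member, 1.96, 1.94 and 1.70 at Malat1/Neat1, and 1.72, 1.70 and 1.46 at Mir21. The median log2 ratio of all peaks moved by 1.43, 1.41 and 1.18. The members at least 2-fold higher then numbered 9, against 10.6%, 10.1% and 7.04% of all peaks. They numbered 1 with a pseudocount of 1 (0.135% of all peaks), 6 at a limit of 1.5-fold (0.857%) and 0 at 3-fold (0.0902%). The members' share of peak signal became 2.15% in WT and 7.01% in K36M over peaks at or above the median level, where fewer peaks were counted, and 0.721% and 2.51% after division by peak length. Depth limits the weakest member most, with 32 and 46 reads.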

Other observations

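Of the 102 peaks higher in K36M, 9 were members, 32 lay in the histone gene windows, none lay in the Hox windows and 61 lay elsewhere. Among the 10 peaks with the most K36M signal, 3 were members, 3 lay in the histone windows of chromosome 13 and 1 was a HoxC peak. Also among them were chr12:73962400-74019199 and chr6:49159800-49178999, which ranked 1 and 2 by RPM in WT. Both were lower in K36M, with ratios of 0.185 and 0.300. A further one, chr11:115881400-115885999, had 36.4 RPM (WT) against 53.3 RPM (K36M), with a ratio of 1.46, and lay in none of the windows. It was picked out after its values were seen.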
